A study of Trichoderma reesei with 36 samples.

Results

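The comparison described here sets *Trichoderma reesei* Rut-C30 fed for 24 h with a mixture of 75% glucose and 25% lactose (G75-L25, 4 libraries) against the same strain fed with pure lactose (L100, 6 libraries). The members were taken from the feed and the time in the labels, which gives 10 of the 36 libraries of the series. It shows which transcripts were lower and which were higher while the feed still held glucose. The mixture also held less lactose, so the effects of the glucose and of the smaller share of lactose cannot be told apart. The other libraries sampled at 24 h, 6 on pure glucose (G100) and 2 on 90% glucose and 10% lactose (G90-L10), shared the fit and are given where they place a gene between the pure feeds. Rut-C30 is a mutant strain that hypersecretes cellulases and carries a truncated copy of the carbon catabolite repressor gene CRE1. All cultures grew on glucose in flasks until it ran out and were then split into smaller flasks and fed, so every group shares the strain, the batch phase and the feeding rate. Each replicate had its own batch culture, which the study divided among flasks of different feeds, so flasks of different feeds can share a batch culture. The labels do not give this pairing, and the test did not use it. Names of the L100 and G100 libraries begin with 2014 and those of both mixtures with 2015. No G75-L25 library has the year of the L100 libraries, so the effects of the feed and of whatever differed between the years cannot be told apart. Total counts ran from 22792252 to 26135865 per library on G75-L25 and from 9955798 to 49808747 on L100. RNA came from whole mycelium, so fewer expressing cells and less RNA per cell cannot be told apart.

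Lactose, a disaccharide of glucose and galactose, is one of the few soluble sugars on which this fungus makes cellulases. It enters through permeases such as CRT1 or is split by a secreted β-galactosidase, and the galactose passes through the Leloir pathway or through a reductive pathway that shares enzymes with the use of pentoses. The activator XYR1 is needed for expression of the cellulase and xylanase genes. In strains with an intact CRE1, glucose holds these genes back through it and through other routes. Rut-C30 keeps a CRE1 fragment, and the study describes a partial release of this repression and a CRE1 turned into an activator. Cellulases leave the cell by the secretory pathway, so folding factors of the endoplasmic reticulum (ER) are usually followed beside them.

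One library of the mixture stood apart. The library 2015-430 correlated at 0.962 to 0.972 with the other G75-L25 libraries (log2 CPM, read counts scaled to the library total, across 8288 genes). The other 3 correlated at 0.99 to 0.994 among themselves, and the L100 libraries at 0.98 to 0.993. With the L100 libraries 2015-430 correlated at 0.964 to 0.985. For 2015-424, 2015-426 and 2015-428 these values were 0.965 to 0.984, 0.971 to 0.987 and 0.967 to 0.983. It thus stood apart by its correlation with its own group, not with L100. Genes are not independent replicates and these values are a description. The library sat with the mixture in the cellulase list (median log2 difference from the L100 mean of -0.79, against -1.14 to -0.87 in the other 3). In the list of proteases its median was -0.27, against 0.80 to 0.92 in the other 3. There it lay slightly below every L100 library (-0.22 to 0.41). Results are therefore given with all 4 libraries and without 2015-430. Below, values on G75-L25 are always in the order 2015-424, 2015-426, 2015-428 and 2015-430, and values on L100 are the lowest, the median and the highest of the 6 libraries, all as CPM after TMM normalization. These levels are not divided by gene length and are compared only within a gene. Log2 fold changes are G75-L25 minus L100 and carry their standard error.

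Of 8288 genes tested, 1102 (13.3%) were higher on the mixture at an adjusted p below 0.05 and 1186 (14.3%) were lower. Among them 99 and 106 differed by more than 1 on the log2 scale. By the stricter limits of the study (adjusted p under 0.001, fold change beyond 2 on the log2 scale in either direction) 8 genes (0.0965%) were DE and higher and 6 (0.0724%) were DE and lower. Without 2015-430, 1242 (15%) were higher and 1429 (17.2%) were lower, and 11 (0.133%) and 9 (0.109%) were DE. The fits shared 11 DE genes, which makes 23 DE genes in either. With a fit on all 36 libraries at both times 6 genes were DE and 1294 had changed. The 10 most abundant transcripts took 18.1% to 22.9% of the counts on G75-L25, 27.6% to 31.6% on L100 and 5.93% to 7.91% on G100. Scaling by library size alone moved the median of all genes from 0.01 to 0.23 and put 89.6% of the changed genes on the higher side, against 48.2% after TMM. Directions below are relative to the TMM scale, and a log2 fold change within that shift of 0 can turn with the scale. Counts of list members below are to be read beside 13.3% higher and 14.3% lower over all genes, and no list was tested as a set.

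**Figure D1:**
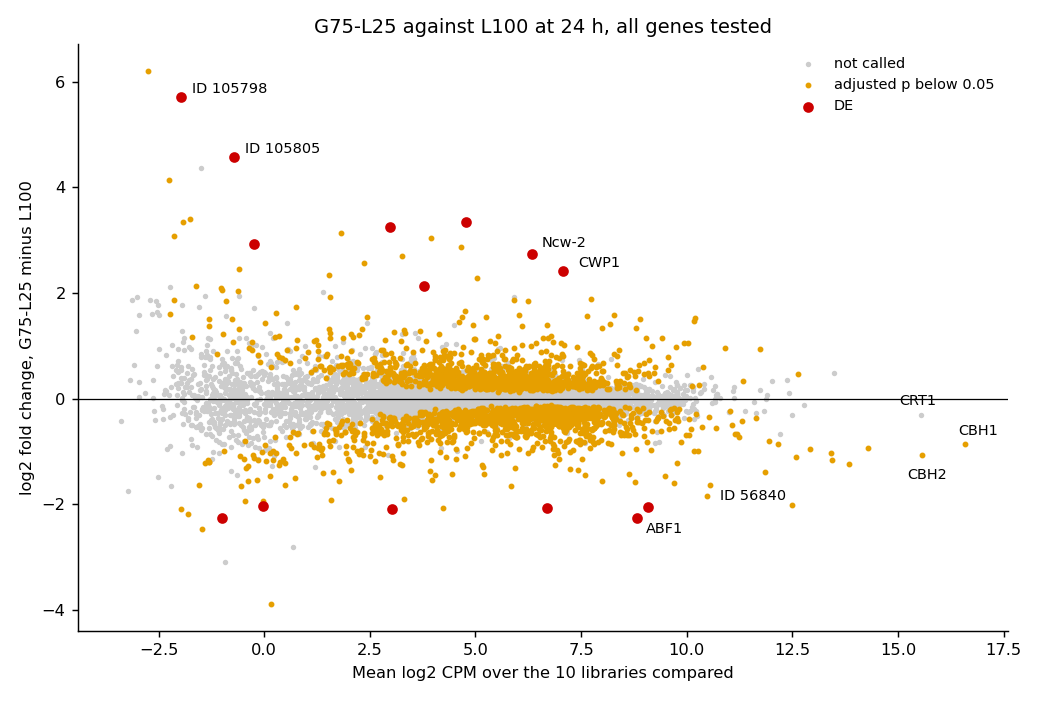
Log2 fold change of G75-L25 against L100 at 24 h (y axis) over the mean log2 CPM of the 10 libraries (x axis), 1 point per gene for 8288 genes. Red points are the 14 DE genes, orange points the other genes at an adjusted p below 0.05 and grey points the rest. CBH1 and CBH2, among the most abundant transcripts, lie below 0 by about 1, whereas CRT1, about as abundant as CBH2, lies nearer to 0. The largest fold changes belong to rare transcripts.

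The cellulase transcripts were lower on the mixture but remained far above their level on glucose. Of 12 members of the list, which holds cellobiohydrolases, endoglucanases and accessory proteins of cellulose breakdown, 8 fell and 0 rose, with a median of -0.90 beside 0.01 over all genes. CBH1, the main secreted cellobiohydrolase, was at 55363, 69517, 63212 and 92582 CPM on G75-L25 and at 102411, 122126 and 158539 CPM on L100. The groups did not overlap, 2015-430 was the highest of the mixture, and the log2 fold change was -0.86 ± 0.23, adjusted p = 0.0109 (without 2015-430, -1.02, adjusted p = 0.00506). On G100 the same transcript was at 2542 to 5759 CPM.

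CBH2, which works from the other chain end, was at 26928, 32344, 26378 and 39689 CPM against 52304, 67128 and 80605 CPM on L100 (-1.08 ± 0.23, adjusted p = 0.00242). The endoglucanase EGL2, which cuts within cellulose chains, fell most of the list, at 8599, 9783, 8595 and 7981 CPM against 17508, 21193 and 22780.5 CPM (-1.24 ± 0.24, adjusted p = 0.00106). In both genes all 4 libraries of the mixture were below all 6 on lactose. EGL1, the xyloglucanase CEL74A, the swollenin SWO1, CIP1 and ID 49976, a putative endoglucanase of family GH45, fell by 0.80 to 1.15 on the log2 scale. The monooxygenase CEL61A passed the test only without 2015-430 (-1.03 ± 0.30, adjusted p = 0.0157). EGL3, CEL61B and CIP2 did not pass in either fit, at 0.05, -0.02 and -0.20, and in each 2015-430 was the lowest of the mixture. None of the 8 passed in the fit over all 36 libraries, where CBH1 had an adjusted p of 0.249 at a log2 fold change of -0.85.

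The β-glucosidases, which split cellobiose to glucose, did not move as the cellulases did. Of 7 members 1 fell and 1 rose, or 2 rose without 2015-430. CEL3D was at 50.8, 56.1, 47.8 and 45 CPM against 87, 103 and 109 CPM on L100 (-1.02 ± 0.09, adjusted p = 1.25e-06), with no overlap. CEL3B was at 309, 264, 239.7 and 173 CPM against 134, 153 and 186 CPM (0.66 ± 0.16, adjusted p = 0.00531), and only 2015-430 lay inside the L100 range. The main secreted enzyme BGL1 was at 307, 286, 199 and 42.7 CPM against 74.8, 104 and 221 CPM. It was above every L100 library in 2015-424 and 2015-426 and below them all in 2015-430. It did not pass the test with all libraries (0.74 ± 0.47, adjusted p = 0.26), and without 2015-430 it was at the limit (1.08 ± 0.40, adjusted p = 0.0499965). The intracellular enzymes CEL1A and CEL1B did not pass, at -0.32 and -0.07.

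**Figure D2:**
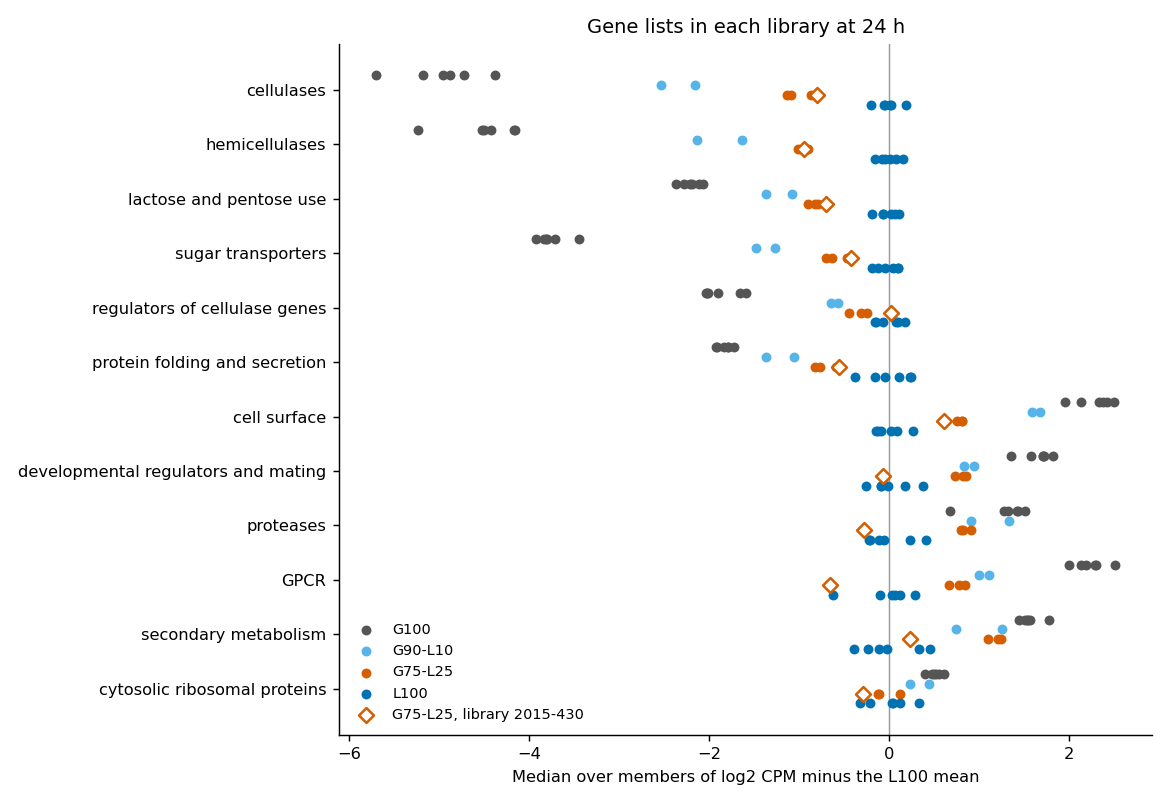
Median over the members of 12 gene lists of the log2 CPM minus the L100 mean (x axis), 1 point per library at 24 h. Filled circles are libraries of G100 (grey), G90-L10 (light blue), G75-L25 (orange) and L100 (blue), and the open diamond is 2015-430. The cellulase medians of G75-L25 lie between -1.14 and -0.79 and those of G90-L10 between -2.53 and -2.16, and 2015-430 leaves the rest of its group in the lists of proteases, GPCR, developmental regulators and secondary metabolism.

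Most hemicellulase transcripts were lower on the mixture as well. Of 16 members 10 fell and 1 rose, with a median of -0.83. The arabinofuranosidases ABF1 and ABF2, which release arabinose side chains, led the list. ABF1 was at 149.6, 160.0, 175 and 227 CPM against 681, 805 and 1074 CPM on L100, and its log2 fold change of -2.27 ± 0.15, adjusted p = 7.32e-08 made it the only DE gene of the list. ABF2 was at 639, 743, 674 and 584 CPM against 1920.2, 2423 and 2655 CPM (-1.85 ± 0.23, adjusted p = 2.34e-05). In both, the highest library of the mixture was far below the lowest on lactose. Among the xylanases XYN1 and XYN5 fell by 1.39 and 1.60, and XYN3, XYN4 and XYN6 fell by 0.83, 0.56 and 0.82. The call of XYN6 was lost without 2015-430 (-0.64 ± 0.25, adjusted p = 0.0641) or without 2015-428 (adjusted p = 0.0601), and those of XYN4 and XYN6 were lost when libraries were scaled by size alone. The polygalacturonase PGX1, the mannanase MAN1 and the acetyl esterase AES1 fell by 1.35, 0.98 and 1.11.

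Other members went the other way or did not move. The third arabinofuranosidase of the list, ABF3, rose: it was at 78.2, 77.1, 60.8 and 104 CPM against 12.2, 37.8 and 48.5 CPM (1.18 ± 0.30, adjusted p = 0.007), so that the 3 arabinofuranosidases did not move together. XYN2, a xylanase of family GH11, was at 83.4, 55, 94.5 and 2.99 CPM against 7.27, 16.6 and 47.3 CPM. Only 2015-430 was low, and the gene passed the test without it (1.77 ± 0.61, adjusted p = 0.0351) but not with it (adjusted p = 0.161). The α-galactosidase AGL3 was high in 2015-430 alone, at 168, 215, 125 and 845 CPM against 247, 389 and 749 CPM, and was called lower only without it (-1.37 ± 0.41, adjusted p = 0.0182). The β-xylosidase BXL1 was at -0.01. In the fit over all 36 libraries 3 members fell and 0 rose. Outside the list, 2 more glycoside hydrolases, named for their change in this same contrast, fell with no overlap, which that choice favors. ID 103049, a putative family GH28 enzyme of pectin breakdown, was DE at 47.9, 57, 47.4 and 25.4 CPM against 166, 189.8 and 205 CPM (-2.08 ± 0.22, adjusted p = 5.14e-06), and ID 110894, a putative member of family GH30, was at 97.5, 118, 116 and 95.1 CPM against 241, 280.2 and 386 CPM (-1.45 ± 0.14, adjusted p = 2.41e-06).

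Transcripts for the use of lactose and pentoses were lower too. Of 11 members 7 fell and 0 rose, with a median of -0.77. ID 56840, a putative D-galactose dehydrogenase, was at 745, 789, 644 and 837 CPM against 2186, 2353 and 2507 CPM on L100 (-1.64 ± 0.13, adjusted p = 3.75e-07). LAD1, the L-arabinitol dehydrogenase that also takes part in the reductive galactose pathway, was at 79, 82.7, 79.8 and 80.3 CPM against 156, 164 and 172 CPM (-1.03 ± 0.07, adjusted p = 6.38e-08). In both genes 2015-430 lay with the other libraries of the mixture and the groups were far apart. The xylulokinase XKI1, the galacturonic acid reductase GAR1 and the putative dehydrogenases ID 53526 and ID 53673 fell by 0.77 to 0.82. The secreted β-galactosidase BGA1 was at 629.5, 965, 849 and 619 CPM against 999.6, 1212 and 1572 CPM (-0.69 ± 0.19, adjusted p = 0.0109), and its call was lost with scaling by library size alone when 2015-430 was left out. LXR1, a D-mannitol 2-dehydrogenase, was at 18.8, 28.4, 22.1 and 185 CPM against 23.1, 44.7 and 87.6 CPM. It had a log2 fold change of 0.35 with all libraries (adjusted p = 0.674) and of -1.10 ± 0.37, adjusted p = 0.0328 without 2015-430. ID 121308, a putative xylose isomerase, was not called with all libraries and was higher without 2015-430 (0.72) or with library size alone (0.74). The symbols of the Leloir pathway itself and of xylose reductase gave 1 gene higher and 1 lower of 6, the galactokinase GAL1 at 0.35 and UGP1 at -0.42. The call of GAL1 was lost without any of 7 single libraries, 2015-430 among them, and without 2015-430 none of the 6 was higher, whereas UGP1 and GAL7 were lower. With all 36 libraries in the fit 3 of the 11 members fell.

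Of 12 putative sugar transporters 7 fell and 1 rose. ID 69957, a putative D-xylose transporter, was DE at 224, 292, 288 and 139 CPM against 781, 999 and 1149 CPM (-2.05 ± 0.22, adjusted p = 6.93e-06), with 2015-430 the lowest. The xylose permease XLT1 was at 371, 431, 423 and 346 CPM against 959, 1076 and 1188 CPM (-1.46 ± 0.11, adjusted p = 3.1e-07), and the groups did not overlap in either gene. The lactose permease CRT1 was among those that did not pass, at 38412, 48071, 42201 and 38701 CPM against 45717, 51909 and 58511 CPM (-0.32 ± 0.17, adjusted p = 0.166). Its groups overlapped, and on G100 it was at 4404 to 7475 CPM. ID 22912, a putative high-affinity glucose transporter, was the one that rose, at 49.4, 62.3, 40.6 and 51.7 CPM against 19.4, 21.9 and 31.9 CPM (1.13 ± 0.23, adjusted p = 0.00153). ID 67541, a putative carbohydrate transporter, fell with all libraries (-0.98 ± 0.28, adjusted p = 0.0154) but not without 2015-428 (adjusted p = 0.0597). The log2 fold changes of the other members that fell, ID 56684, ID 46819, ID 54632 and ID 50894, lay between -1.43 and -0.50. Fitted on all 36 libraries, 3 members fell and 0 rose.

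Differences were small among the regulators of the cellulase genes. Of 8 members 2 fell and 0 rose. XYR1, the main activator, was at 2599.7, 2815, 2740.2 and 2953 CPM against 2961, 3678 and 4111 CPM (-0.36 ± 0.11, adjusted p = 0.0177), and 2015-430, the highest of the mixture, came just below the lowest L100 library. CLR2, whose ortholog activates cellulase genes in *Neurospora crassa*, was at 38.9, 49.6, 50.3 and 46.9 CPM against 55.1, 61.4 and 64.4 CPM (-0.37 ± 0.13, adjusted p = 0.0351). Both calls are close to the limit. That of XYR1 was lost without 2015-424 (adjusted p = 0.053), that of CLR2 when any of 6 libraries was left out (adjusted p 0.0529 to 0.116), and both when libraries were scaled by size alone or when all 36 were fitted. The activator ACE3 was at 1484, 1412, 1296 and 670.4 CPM against 941, 1091 and 1567 CPM (0.01, adjusted p = 0.971). CRE1 and ACE1 were at -0.08 and 0.05 and did not pass, and with library size alone ACE1 was called higher (0.27, adjusted p = 0.00789). YPR1, a regulator of yellow pigment genes, was at 22.3, 27.9, 29.4 and 80.2 CPM against 30.3, 53.2 and 89.3 CPM, and only without 2015-430 was it lower (-1.13 ± 0.30, adjusted p = 0.00819).

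Most folding factors of the ER fell with the enzymes that pass through it. Of 5 members 4 fell, and FPR2, at 0.60, was not called. The chaperone BIP1 was at 2805, 2828, 3496 and 3866 CPM against 4203, 5982 and 7164 CPM (-0.85 ± 0.17, adjusted p = 0.00153), with no overlap. The calnexin CNE1, the protein disulfide isomerase PDI1 and the putative peptidyl-prolyl isomerase ID 123922 fell by 0.68, 0.66 and 0.73. A wider list of 11 secretion and folding genes, taken by RefSeq symbol and holding BIP1 and PDI1 again, had 8 lower and 0 higher. It included the small GTPases SAR1 (-0.50) and YPT1 (-0.23), which act in transport out of the ER, and the membrane fusion protein SNC1 (-0.38). IRE1, the sensor of unfolded proteins, was at 679, 731, 756 and 743 CPM against 780.4, 821 and 912 CPM (-0.19 ± 0.06, adjusted p = 0.0254). Its call was lost without 2015-424, 2015-426 or 1 of the L100 libraries (adjusted p 0.0546 to 0.091). With library size alone 5 of the 11 were lower, IRE1 turned to 0.030 and YPT1 was at -0.0067, neither of them called.

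Among the transcripts higher on the mixture were those of cell surface proteins. Of 12 members 11 were tested, 5 rose and 0 fell, with a median of 0.80. Ncw-2, a putative cell wall protein that is not anchored to the membrane, was at 234, 243, 297 and 242 CPM against 33.4, 37 and 49.6 CPM (2.73 ± 0.11, adjusted p = 3.3e-11). Every library of the mixture was far above every library on lactose, and the gene had the smallest adjusted p of the 8288 tested. CWP1, another putative cell wall protein, was at 381, 463, 699.6 and 111 CPM against 44.6, 69.7 and 129 CPM (2.42 ± 0.37, adjusted p = 0.00016). Here 2015-430 lay inside the L100 range, and without it the log2 fold change was 2.73 ± 0.28, adjusted p = 3.63e-06. QID74 and ID 120823 rose by 1.02 and 0.97, and ID 104584, a rare putative GPI-anchored protein, by 0.80. These 3 calls were lost when certain single libraries were left out (adjusted p 0.0535 to 0.132), that of ID 104584 also without 2015-430 (adjusted p = 0.0669). The hydrophobins, small amphipathic proteins that coat hyphae and spores, did not pass: HFB2 was at 2553, 2211, 1946 and 593 CPM against 975, 1784 and 2066 CPM (0.16 ± 0.30, adjusted p = 0.727), and HFB3 was at 0.15. In the fit over all 36 libraries 2 members rose.

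**Figure D3:**
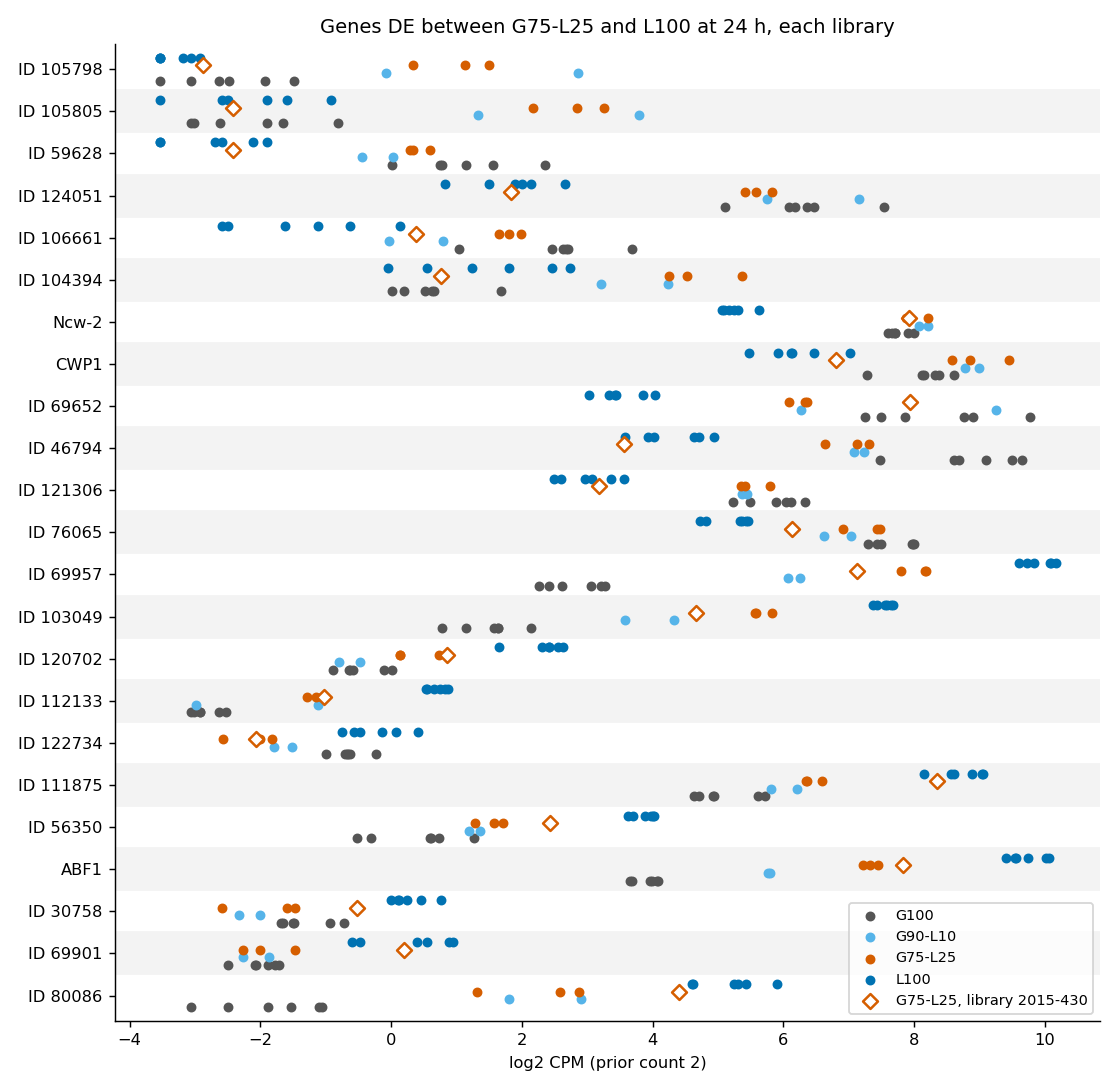
Log2 CPM (prior count 2, x axis) of the 23 genes that were DE with or without 2015-430, 1 point per library at 24 h. Filled circles are libraries of G100 (grey), G90-L10 (light blue), G75-L25 (orange) and L100 (blue), and the open diamond is 2015-430. Ncw-2 separates all 4 libraries of the mixture from all 6 on lactose, whereas in CWP1, ID 121306 and ID 105805 the diamond lies within the L100 points.

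Genes of development and mating were higher in 3 of the 4 libraries of the mixture. Of 7 members 4 rose and 1 fell, and 5 rose and 2 fell without 2015-430. HPR1, a pheromone receptor, was at 13.9, 16.7, 23.3 and 5.82 CPM against 4.38, 6.45 and 8.25 CPM (1.26 ± 0.28, adjusted p = 0.00329). PRO41, an ER membrane protein needed for fruiting bodies in *Sordaria macrospora*, was at 21.4, 20.9, 19.4 and 9.26 CPM against 5.09, 6.72 and 11.6 CPM (1.25 ± 0.24, adjusted p = 0.0013). In both, 2015-430 lay within the L100 range and the other 3 above it. Tr-WET-1 and Tr-PRO1, named for regulators of spore formation in *Aspergillus nidulans* and of fruiting bodies in *S. macrospora*, rose by 0.97 and 0.56. The call of Tr-PRO1 was lost when any of 7 single libraries was left out, none of them 2015-430. Tr-FSD-1, an NDT80-like regulator, fell (-0.66 ± 0.18, adjusted p = 0.0106). Of 13 G protein-coupled receptors (GPCR) annotated by the study, HPR1 among them, 3 rose and 1 fell with all libraries and 8 rose and 0 fell without 2015-430. Over all genes 13.3% rose and 14.3% fell with all libraries, and 15% and 17.2% without 2015-430. The median of the GPCR list, relative to the L100 mean, was -0.66 in 2015-430 and 0.67 to 0.84 in the other 3. With all 36 libraries in the fit no member of either list was called.

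Proteases split by member. Of 20 genes annotated by the study as proteases 7 rose and 4 fell, and 10 rose and 5 fell without 2015-430. ID 121306, a putative pepsin, was at 42.5, 40.7, 55.6 and 9.01 CPM against 5.54, 8.03 and 11.7 CPM (2.12 ± 0.35, adjusted p = 0.000306). ID 124051, a putative serine peptidase, was at 42.7, 47.8, 56.8 and 3.49 CPM against 1.69, 3.79 and 6.25 CPM (3.25 ± 0.58, adjusted p = 0.000625), and without 2015-430 its log2 fold change was 3.61 ± 0.43, adjusted p = 1.48e-05. ID 106661, a putative scytalidopepsin B, was at 3.87, 3.42, 3.04 and 1.21 CPM against 0.0804, 0.306 and 1.01 CPM (2.94 ± 0.55, adjusted p = 0.000899). All 3 were DE, and in the first pair 2015-430 fell into the L100 range while in the third it stayed above it. The largest decrease was in ID 106315, a putative trypsin-like protease, from a median of 69 on L100 to 26.8 to 35.4 CPM on the mixture (log2 fold change -1.07 ± 0.12, adjusted p = 1.08e-05). Fitted on all 36 libraries, 4 proteases rose and 1 fell.

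Transporters of amino acids and peptides also split, with 2 higher and 6 lower of 12. Both putative peptide transporters of the MFS family among them were DE without 2015-430, in opposite directions. ID 46794 was at 139, 100.0, 159 and 11.7 CPM against 11.9, 20.5 and 30.5 CPM (2.65 ± 0.35, adjusted p = 4.2e-05 without 2015-430 and 2.29 with it). ID 80086 was at 2.41, 5.91, 7.22 and 21 CPM against 24.3, 38.6 and 60 CPM (-2.88 ± 0.39, adjusted p = 5.24e-05 without 2015-430 and -2.08 with it). In ID 46794 only 2015-430 was low, and in ID 80086 it was the library of the mixture closest to L100.

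Genes of secondary metabolism, as the study annotated them, were higher on the mixture. Of 9 genes 8 were tested and 5 rose, 0 fell, with a median of 1.05, and 7 rose without 2015-430. ID 69652, a putative flavin-dependent halogenase, was at 67.9, 82.2, 80.1 and 245 CPM against 8.05, 10.7 and 16.3 CPM (3.35 ± 0.57, adjusted p = 0.000415). ID 81964, a putative polyketide synthase, was at 15.3, 21.9, 21.6 and 66.5 CPM against 3.6, 4.93 and 6.14 CPM (2.70 ± 0.57, adjusted p = 0.00217). In both, every library of the mixture was above every L100 library and 2015-430 was the highest. Without it ID 69652 missed the limit for DE (adjusted p = 0.00119). In the fit over all 36 libraries 2 members rose.

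Among the genes named for the size or the adjusted p of their change were putative carbohydrate-active enzymes outside the lists above. ID 76065, a putative member of Auxiliary Activity family 11, whose enzymes cleave chitin by oxidation, was at 121, 173, 179 and 69.8 CPM against 26.5, 40.7 and 43.9 CPM. It was DE without 2015-430 (2.09 ± 0.19, adjusted p = 1.37e-06). ID 82235 of family GH31 was at 483, 671, 627 and 639.7 CPM against 153, 211 and 228 CPM (1.59 ± 0.12, adjusted p = 3.75e-07), and ID 54198, a glycoside hydrolase with no family given, was at 339.6, 433, 518 and 623 CPM against 102, 125 and 181 CPM (1.88 ± 0.17, adjusted p = 1.45e-06). ID 49193 of family GH17, whose members act on β-1,3-glucans, was at 383, 481, 595 and 336 CPM against 156, 176 and 207 CPM (1.33 ± 0.13, adjusted p = 1.88e-06). The groups of these 4 genes did not overlap, also with 2015-430. Since the genes were named for this same contrast, that separation follows in part from the choice. ID 59628, a putative member of family GH128, was rare, at 1.42, 1.18, 1.14 and 0.101 CPM against 0, 0.0742 and 0.183 CPM, and was DE without 2015-430 (3.75 ± 0.61, adjusted p = 0.000259).

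A few genes were high on the mixtures and low on both pure feeds. ID 105805, a putative Zn(2)Cys6 transcription factor, was at 9.44, 4.44, 7.06 and 0.101 CPM on G75-L25 and at 2.44 and 13.7 CPM on G90-L10. It was at 0, 0.137 and 0.442 CPM on L100 and did not exceed 0.484 CPM on G100. The log2 fold change against L100 was 4.58 ± 0.82, adjusted p = 0.000671 (4.97 ± 0.58, adjusted p = 1.46e-05 without 2015-430), and 2015-430 alone was at the level of the pure feeds. ID 105798, a putative MFS transporter, had 69, 29, 52 and 1 counts on G75-L25 and 3 counts in all 6 L100 libraries. The ratio of its normalized totals was 66.1 (95% exact interval 22.2 to 324, counting error only) and 83.1 (27.9 to 407) without 2015-430. It had 23 and 176 counts on G90-L10 and at most 6 on G100. ID 105806, chosen after its values were seen, had 22, 7, 12 and 3 counts against 6 in all L100 libraries, a ratio of 9.63 (4.09 to 27.6).

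ID 104394, a putative lipase or esterase, was also high on the mixtures and low on the pure feeds, apart from 2015-430. It was at 19, 23, 41.3 and 1.62 CPM on G75-L25, at 18.7 and 9.21 CPM on G90-L10, at 0.884, 2.83 and 6.59 CPM on L100 and at 0.921 to 3.13 CPM on G100. It was DE without 2015-430 (2.93 ± 0.43, adjusted p = 0.000113), which lay within the L100 range. Since only the mixtures carry the year 2015, such a level could equally go with the year, and year and feed cannot be told apart.

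**Figure D4:**
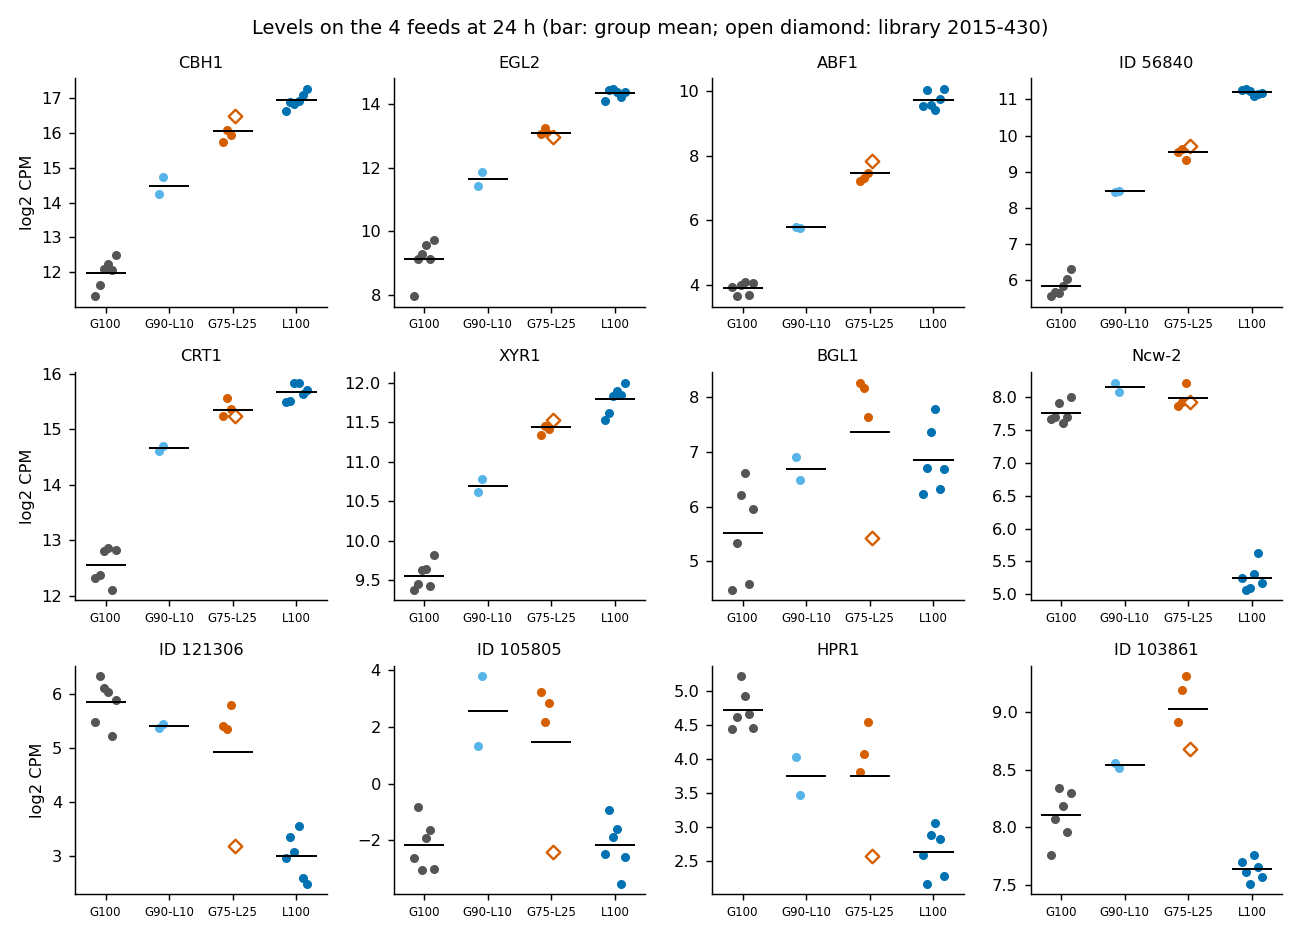
Log2 CPM (y axis) of 12 genes on the 4 feeds at 24 h, 1 point per library, with the group mean as a bar and 2015-430 as an open diamond. The group means of CBH1, EGL2, ABF1, ID 56840, CRT1 and XYR1 are in the order of the share of lactose, Ncw-2 stays at its G100 level on both mixtures, and ID 105805 is high on the mixtures alone apart from 2015-430.

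The position of the mixture relative to the pure feeds was read from group means, with no test. Of the 1102 genes higher on G75-L25 than on L100, 616 (55.9%) had a mean above both pure feeds, and of the 1186 lower genes 466 (39.3%) had a mean below both. Over all 8288 genes 24.3% were above both and 25% below both. Without 2015-430 the shares were 53.2% of 1242 and 40% of 1429, beside 23.9% and 25% of all genes. A called gene already lies on a known side of L100, so these shares are in part fixed by the selection. Where L100 and G100 differed by more than 1 on the log2 scale, the distance from G100 that G75-L25 had covered was computed from the log2 means. For the 12 cellulases its median was 81.1% (76.1% to 98%), and on G90-L10, which shares the year of G75-L25, it was 53.2%. Hemicellulases had covered 74.3%, lactose and pentose use 70% and 4 folding factors 59.9%. Over all 707 genes higher on L100 than on G100 the median was 72.6%, and over the 601 lower genes 74.2%. In 2015-430 alone these medians were 78.5% and 93.5%, and without it they were 69.2% and 66.4%. The 10 members of the cell surface list with such a difference had a median of 76.9%. Ncw-2 and CWP1 lay far from it, at -8.81% and -14.1%, that is, their means on G75-L25 were on the far side of G100. On G90-L10 Ncw-2 was at 298 and 270.1 CPM, and its median on G100 was 208 CPM.

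The clusters that the study made from these samples gave the same account and are not independent evidence. Of the genes it placed in the cluster strongly raised by lactose, 77 were tested, 62 fell and 0 rose. In the weakly raised cluster 110 of 194 fell and 0 rose. Of the genes strongly lowered by lactose 21 of 62 rose and 0 fell, and of those weakly lowered 92 rose and 2 fell. The cluster raised unevenly by lactose had 13 of 52 higher and 0 lower. With all 36 libraries in the fit these counts were 15, 35, 9, 31 and 8. The median of the unevenly raised cluster was -0.80 in 2015-430 against 0.56 to 0.67 in the other 3. Of the 23 DE genes 22 are in the study's list, and of the 2288 changed genes 300 are, beside 649 of all 9129 genes. The study made that list in part from this same comparison, so the overlap is not independent evidence either.

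The remaining DE genes that fell are mostly of unknown function. ID 56350, a putative tryptophan synthase, was at 2.88, 3.18, 2.35 and 5.31 CPM against 12.2, 15.2 and 16.2 CPM (-2.09 ± 0.28, adjusted p = 5.13e-05). ID 111875 was at 81.6, 96, 82 and 325 CPM against 286, 434 and 531 CPM, and only 2015-430 lay within the L100 range. It was DE without that library (-2.32 ± 0.26, adjusted p = 9.03e-06). ID 120702 was at 1.58, 1.02, 1.01 and 1.72 CPM against 3.06, 5.23 and 6.11 CPM and was DE without 2015-430 (-2.05 ± 0.25, adjusted p = 2.25e-05). The other 4, ID 112133, ID 122734, ID 30758 and the putative MFS transporter ID 69901, were rare, at or below 1.83 CPM in each of the 10 libraries. Their log2 fold changes with all libraries were -2.04, -2.26, -1.93 and -1.56, so ID 30758 and ID 69901 were DE only without 2015-430. With all libraries ID 69901 was called at an adjusted p below 0.05. That call was lost without any one of the other 3 libraries of the mixture (adjusted p 0.0623 to 0.0872).

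Among gene groups of basic functions the ribosomal proteins and histones changed little, whereas most proteasome subunits were lower. Over all genes 13.3% were higher and 14.3% lower. Of 42 cytosolic ribosomal proteins 1 was higher and 2 were lower, with a median of -0.09, and of 5 histones none was called (median -0.10). Of 20 genes of central carbon metabolism 4 rose and 0 fell. The hexokinase HXK1 rose by 0.26, the isocitrate dehydrogenase subunit IDH2 by 0.48, ACU9, the malate synthase, by 0.63 and ACL1, a subunit of ATP citrate lyase, by 0.33, a call lost without 2015-428 (adjusted p = 0.0921). Of 6 proteasome subunits 4 fell, with a median of -0.31. Scaling by library size alone gave 7 higher ribosomal genes, 11 higher genes of central carbon metabolism and 1 lower proteasome subunit.

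At 48 h the same feeds were sampled in 10 other libraries, and both times were fitted together over 20 libraries. The labels do not say which 24 h and 48 h libraries came from 1 culture. Of the 23 DE genes 22 had the same direction at 48 h, beside 71.3% of all 8181 genes, and 15 had changed there, beside 15.5%. Without 2015-430 and the 48 h libraries 2015-431 and 2014_274, all 23 had the same direction (80.2% of all genes) and 22 had changed (45.4% of all genes). The exception with all libraries was the peptidase ID 106661, at 2.93 ± 0.90 at 24 h and -1.33 ± 0.92 at 48 h, and at 0.95 ± 0.57 at 48 h without the 3 libraries. Ncw-2 was at 2.75 ± 0.35 and 3.51 ± 0.36, and ABF1 at -2.25 ± 0.55 and -2.46 ± 0.56. The difference between the times passed the test in 0 of 8181 genes (0%), with 672 at an unadjusted p below 0.05 in edgeR and 13 called by DESeq2. Without the 3 libraries it passed in 4 of 8191 genes (0.0488%). The mannanase MAN1 (-0.97 at 24 h and -1.98 at 48 h) and the chitinase CHI18-9 (-1.14 and -2.35) were lower at both times and further from L100 at 48 h. The polyketide synthase ID 81964 was higher at 24 h alone (2.03 and -0.0020). ID 105311, a putative small secreted cysteine protein, was higher at 48 h alone (-0.34 and 1.91).

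**Figure D5:**
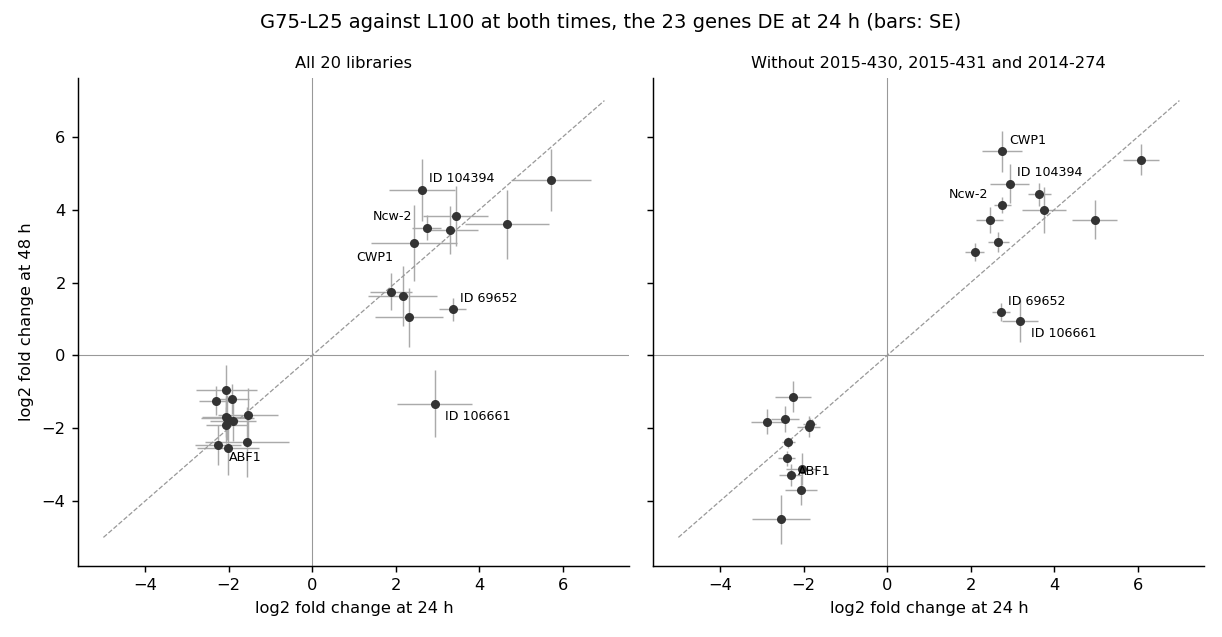
Log2 fold change of G75-L25 against L100 at 24 h (x axis) and at 48 h (y axis) of the 23 genes that were DE at 24 h, with SE as bars, for all 20 libraries (left) and without 3 libraries (right). The dashed line marks equal fold changes. In the left panel 22 of 23 genes lie on the same side of 0 at both times, with ID 106661 the exception, and in the right panel all 23 do.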

How the data were processed

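Strand-specific mRNA libraries were sequenced from mycelium sampled at 24 h and 48 h of feeding. The authors filtered reads with the Eoulsan pipeline and assigned them to the gene models of JGI annotation version 2, and each deposited file holds the raw read counts of 1 library on 9129 genes. The submitters' processing notes name bcl2fastq 2.17.1.14, Bowtie and HTSeq 0.5.3. Gene IDs are the protein IDs of the reference strain QM6a, and no coordinates were used.

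Groups came from the labels. The tests used edgeR 4.0.16 (R 4.3.3). Its filterByExpr with a minimum count of 10 kept 8288 genes over the 18 libraries at 24 h, TMM factors were used, and the quasi-likelihood test compared G75-L25 with L100 (n = 4 and 6) with Benjamini-Hochberg adjustment over all genes tested. SE was the log2 fold change divided by the square root of F. Levels are given as CPM, and a prior count of 2 entered their logarithms. Alternatives included DESeq2 1.42.0, other normalizations, filters and sets of libraries. The fit was tested on simulated data with known changes. The difference between times was an interaction term over 20 libraries. Tables and figures used Python 3.11.15, pandas 2.3.3, numpy 2.4.6, scipy 1.17.1 and matplotlib 3.10.9.

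Genes named are those DE with or without 2015-430, the 10 lowest adjusted p-values on either side among changes beyond 1 on the log2 scale, and members of the lists described. ID 105806, ID 81964 and ID 105311 were named after their values were seen. Members and lists were chosen with earlier results of these data known, and lists or annotations made by the study are not independent of these samples. Of the names sought, HPP1 was not matched and HAC1 was not used here. The values of 1 regulator are not reported here. RefSeq (assembly GCF_000167675.1) served for symbols alone, and 226 genes had one. Counts of genes that share reads with near copies are uncertain.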

Additional observations from a re-analysis of the deposited data

Results flagged for a closer look

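A test for a value far from the rest of its group, over 46 pairs of a DE gene and a group, picked out 6. Chance picks out about 1 in 20 among genes not chosen on these values. That rate does not apply to 2015-430 here, since the genes include those DE only with it or only without it. Of these, 4 were 2015-430 on G75-L25. That library was low in the putative GH128 enzyme ID 59628, at 0.101 CPM against 1.14 to 1.42 in the other 3, and in the serine peptidase ID 124051, at 3.49 against 42.7 to 56.8. It was high in the halogenase ID 69652, at 245 CPM against 67.9 to 82.2, and in ID 111875, at 325 against 81.6 to 96. The other cases were Ncw-2, high in 2015-428 at 297 CPM against 234 to 243, and ID 120702, low in the L100 library 2014_255 at 3.06 CPM. Without 2015-430, ID 69652 is no longer DE, and ID 59628 and ID 111875 become DE.

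The difference of G75-L25 from L100 changed between 24 h and 48 h in 4 genes when 2015-430, 2015-431 and 2014_274 were left out (edgeR interaction term, Benjamini-Hochberg adjustment). It changed by -1.01 in MAN1 and by -1.21 in CHI18-9 on the log2 scale, and by -2.03 in the polyketide synthase ID 81964 (adjusted p = 0.00268 in all 3). In ID 105311 it changed by 2.25 (adjusted p = 0.0122). With all 20 libraries the same differences were -0.72, -0.90, -2.38 and 0.37, and none passed (adjusted p 0.471 to 0.94). The 13 genes that DESeq2 called with all 20 libraries include none of these 4. Leaving out libraries that stand apart can narrow the spread, so the adjusted p-values without them may be too small. Changed genes at 48 h went from 1268 to 3722. The library 2014_274 had 9.86% of its counts in the 10 most abundant transcripts, whereas the other 48 h libraries on pure lactose had 32.1% to 36.6%. This share was 24.0% in 2015-431 and 16.8% to 18.8% in the other 48 h libraries on G75-L25. The part of these libraries in the result was not tested beyond leaving them out.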

How the results depend on the processing

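The count of 14 DE genes was 26 with DESeq2, 9 with at least 10 counts required in every library, 6 with all 36 libraries in the fit, 25 in a fit of the compared libraries alone without 2015-430, and 90 with a limit of 1 in place of 2 on the log2 scale. Leaving out 1 library at a time gave 20 without 2015-430 and 7 (without 2015-428) to 11 without any of the others. Alternatives chosen after seeing the data, both without 2015-430, gave 36 with DESeq2 and 31 with scaling by library size alone. The count of 2288 changed genes was 3676 with library size alone, 4314 with library size alone without 2015-430, 1294 with all 36 libraries, and 1623 to 2671 when 1 library was left out. The difference between times, 0 genes, was called in 13 with DESeq2 and in 4 without 3 libraries. The causes were not tested.

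LXR1 turned from 0.35 to -1.10 without 2015-430, to -1.10 when the compared libraries alone were fitted without it, and to -1.11 with DESeq2 without it. CEL1B turned from -0.07 to 0.37 with library size alone without 2015-430, and neither of its values with all 4 libraries was called. IRE1 turned from -0.19 to 0.030 with library size alone and to 0.062 with library size alone without 2015-430, where YPT1 turned from -0.23 to 0.019, and none of these 3 values was called. Over the named genes and alternatives, 2727 values kept direction and call, 70 gained a call, 130 lost one and these 7 turned. Fitting all 36 libraries lost 45 of those calls. Library size alone gave 8 higher cell surface genes in place of 5, 11 higher and 2 lower proteases in place of 7 and 4, 8 higher and 0 lower GPCR in place of 3 and 1, 7 higher and 0 lower cytochromes P450 in place of 3 and 3, 6 higher chitinases in place of 3, and 36, 141 and 21 higher genes in the study's clusters strongly lowered, weakly lowered and unevenly raised by lactose, in place of 21, 92 and 13.

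No paired analysis was possible because the labels number libraries serially and do not say which flasks of different feeds came from 1 pre-culture. The smallest L100 library had 9955798 counts, so rare genes rest on few reads.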

Other observations

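Chitinases, taken by RefSeq symbol, gave 3 higher and 1 lower of 15 tested, beside 13.3% higher and 14.3% lower over all genes. CHI18-9 was at 30.7, 34.1, 32.7 and 42.9 CPM on G75-L25 against 62.6, 73 and 78.8 CPM on L100 (lowest, median and highest; log2 fold change -1.04 ± 0.09, adjusted p = 1.14e-06), with no overlap. The rare CHI18-14 had 60 counts in the 4 libraries of the mixture and 7 in the 6 on lactose. The ratio of its normalized totals was 11.3 (95% exact interval 5.14 to 29.2, counting error only), and on G100 it was at 1.94 to 13.8 CPM. CHI18-16 and CHI18-REL1 were called higher as well (log2 fold changes 2.09 and 1.73, adjusted p = 0.0317 and 0.0383), calls lost when any of 5 and of 8 single libraries was left out (adjusted p 0.0521 to 0.158 and 0.0544 to 0.184).

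Over all genes 13.3% rose and 14.3% fell, or 15% and 17.2% without 2015-430, and the small lists that follow were not tested against these shares. Of 14 cytochromes P450 annotated by the study 3 rose and 3 fell, and 6 rose and 3 fell without 2015-430. ID 56687 was at 2.53, 2.65, 3.94 and 0.81 CPM against 0.402, 0.68 and 1.22 CPM on L100 (log2 fold change 1.63 ± 0.38, adjusted p = 0.00434). Of 11 small secreted cysteine proteins 1 rose and 4 fell. Of 9 genes listed under iron and copper uptake 2 rose and 0 fell with all libraries, and 4 rose and 1 fell without 2015-430. That list also holds multicopper oxidases and a zinc transporter, ID 67562, which was 1 of the 2 that rose. The zinc transporter ID 67562 was at 42.8, 48.6, 39.2 and 20 CPM against 8.84, 22.4 and 27.7 CPM (log2 fold change 0.85 ± 0.25, adjusted p = 0.0172), and only 2015-430 lay within the L100 range. Its call was lost without 2015-426 (adjusted p = 0.0731).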
